A study of Mus musculus with 4 samples.

Results

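Notch receptors, their ligands and their transcriptional targets were followed by 10 genes, taken by symbol from the 26600 genes that all 4 count tables hold. These are the receptors Notch1, Notch2, Notch3 and Notch4, the ligands Jag1, Dll1 and Dll4, and the target genes Hey1, Heyl and Hes1. All 10 were listed in every table.

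Notch receptors are single-pass proteins that are activated by a ligand of the Jagged or Delta-like family on a neighbouring cell. Cleavage by γ-secretase then frees the intracellular domain, which enters the nucleus, binds the DNA-binding protein RBPJ and switches on Hes and Hey genes, whose products repress transcription. In bone and marrow the pathway is known for arterial and capillary patterning, for the coating of vessels by mural cells, and for holding skeletal progenitors back from osteoblast differentiation. mRNA of a receptor or target is measured here, and receptor cleavage is not.

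Cells came from male Col2:Td mice, in which a Cre recombinase under a Col2 promoter switches on the tdTomato reporter (Td) at the Rosa26 locus, so that the lineage of cells that once used this promoter is marked. The background strain is labelled B6SJL/F1. All groups carried the same alleles, the labels give no treatment, and they differed by age: 1 month (2 mice), 1.5 months (3 mice), 3 months (3 mice) and 16 months (3 mice). Periosteum and epiphyses were removed from long bones, the central marrow was flushed out, and cells freed by protease from the metaphyseal fragments were sorted for Td. Mice of an age were pooled before loading, so each age is 1 library without a replicate, and age cannot be told apart from library.

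After the filter of 200 to 6000 genes and at most 5% mitochondrial unique molecular identifiers (UMIs, each counting 1 captured transcript), 8308, 5453, 4180 and 6143 cells remained in order of age, with a median of 6264 to 10279.5 UMIs per cell. The limit on mitochondrial UMIs removed 98, 291, 326 and 2987 barcodes. Between 30 and 61 barcodes were shared by any pair of the younger libraries, against 1 or 2 shared with the 16 month library, and the 16 month table lists 31054 genes against 27999 in the others. These differences move with that age and their part in its values was not tested. A cluster was given the name of a cell type, ending in -like, only where 3 or more of the markers fixed for that type were raised in it. Minimums were also set for the percent of cells with a marker (10%) and for the percent of the highest cluster (25%). Some clusters with 3 or more passing markers stayed unnamed, among them the 3 month subcluster led by Cxcl9, Cygb and Fbln1. The mesenchymal names follow the study: EMP and LMP for early and late mesenchymal progenitors, OB for osteoblasts, Ocy for osteocytes, AD for the adipocyte lineage and CH for chondrocytes. The study also names intermediate mesenchymal progenitors and lineage committed progenitors. No markers were fixed for these here, so no cluster could take their names. Although the sort was for Td, hematopoietic, endothelial and mural (pericyte and smooth muscle) cells were present too. Endothelial-like cells held the highest level of all 8 endothelial markers in every library and numbered 168, 32, 247 and 91. Mural-like cells numbered only 23, 65, 30 and 22 and held the highest level of 5, 5, 3 and 3 of 6 mural markers, with Rgs5 at 8079 to 10849 CPM (CPM scales the UMIs of a gene to a common total for each class).

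The promoters of 3 members are shown because each of these genes had 1 class that stood apart in all 4 libraries, mural-like cells for Notch3 and endothelial-like cells for Notch4 and Dll4. The same held for Dll1, whose promoter is not shown because RefSeq gives it 2 starts. Each runs from 250 bases before to 50 bases after the transcription start, in the direction of the gene, from RefSeq on GRCm38.p6. Capitals mark the GC box GGGCGG and its reverse complement.

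Notch3 at chr17:32166841-32167140 on the minus strand: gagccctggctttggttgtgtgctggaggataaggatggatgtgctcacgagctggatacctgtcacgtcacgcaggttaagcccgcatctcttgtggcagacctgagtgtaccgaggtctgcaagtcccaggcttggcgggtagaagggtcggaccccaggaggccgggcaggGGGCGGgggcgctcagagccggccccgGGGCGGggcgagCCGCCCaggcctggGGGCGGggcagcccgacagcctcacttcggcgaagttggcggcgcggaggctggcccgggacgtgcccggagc
Notch4 at chr17:34564045-34564344 on the plus strand: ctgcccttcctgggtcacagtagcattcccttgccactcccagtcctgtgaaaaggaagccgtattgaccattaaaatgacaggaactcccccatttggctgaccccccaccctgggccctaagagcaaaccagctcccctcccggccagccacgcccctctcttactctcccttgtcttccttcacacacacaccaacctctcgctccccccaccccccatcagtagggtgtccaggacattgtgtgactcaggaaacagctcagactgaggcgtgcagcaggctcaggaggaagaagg
Dll4 at chr2:119325534-119325833 on the plus strand: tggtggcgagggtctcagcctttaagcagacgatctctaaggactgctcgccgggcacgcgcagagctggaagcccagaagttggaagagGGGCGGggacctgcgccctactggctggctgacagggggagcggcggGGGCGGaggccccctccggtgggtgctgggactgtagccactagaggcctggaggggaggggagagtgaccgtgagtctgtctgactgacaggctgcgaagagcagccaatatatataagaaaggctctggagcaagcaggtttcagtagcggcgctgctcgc

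The Notch3 window held 4 GC boxes and 25 CpG dinucleotides, the Dll4 window 2 and 17, and the Notch4 window 0 and 5, beside a median of 7 CpG over the 32851 promoters of the table, of which 35.7% held a GC box. RefSeq promoters were matched for 7 of the 10 members, by symbol. The core of the site bound by RBPJ, TGGGAA on either strand, stood in 25.6% of all promoters and in none of those 7. That letter string is a description of these windows and says nothing about binding.

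Of the 10 members, 7 had 1 class with the highest level in all 4 libraries. Endothelial-like cells led for Notch1, Notch4, Dll1 and Dll4, and mural-like cells for Notch3, Jag1 and Heyl, while the leading class of Notch2, Hey1 and Hes1 changed between libraries. Over all 9906 genes with at least 10 CPM in a class of every library, 22.7% kept 1 highest class, 4.21% the endothelial-like, 2.70% the mural-like and 2.54% the AD-like class, which led for no member throughout. The 95% Poisson interval of the highest class lay above that of the next class in 28 of 40 member and library pairs, against 29.8% of such pairs over all genes. All intervals cover counting error only, and with 1 library per age no test between classes or ages was made.

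**Figure D1:**
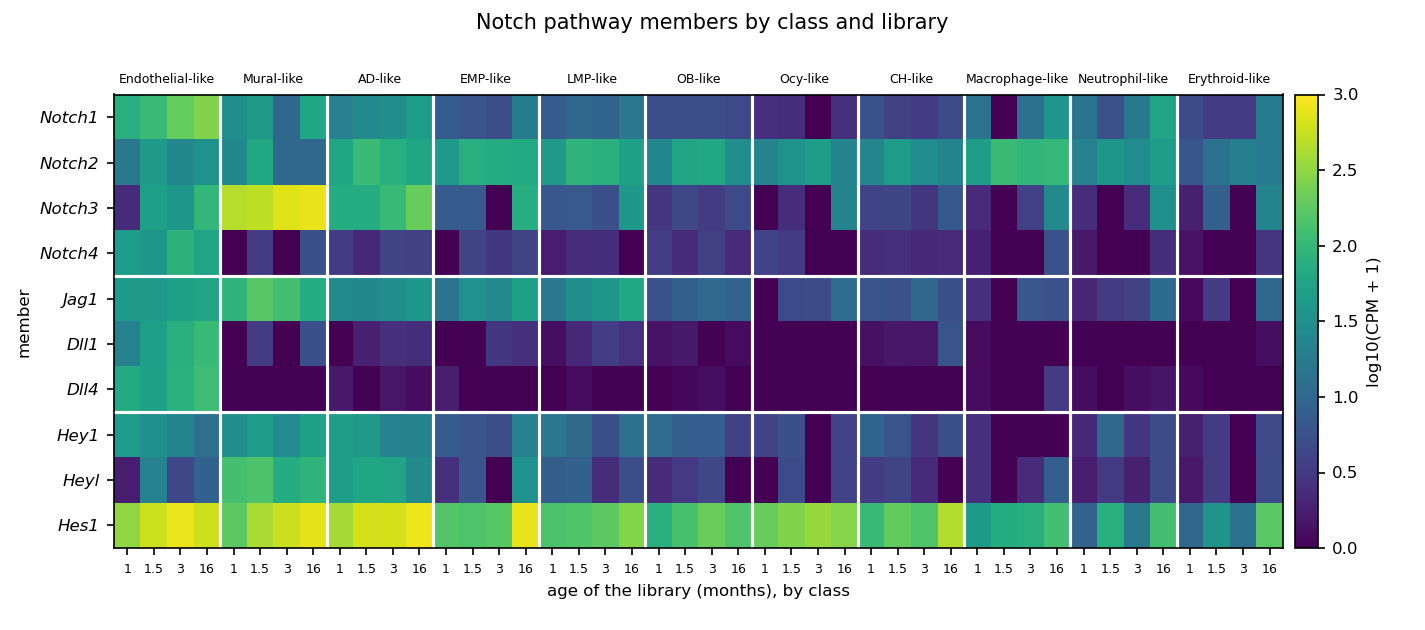
Level of the 10 members, as log10(CPM + 1), in 11 classes (blocks) and 4 libraries (columns, age in months); white lines part receptors, ligands and targets. Dll4 is above 50 CPM in the endothelial-like block alone among these classes, Notch3 peaks in the mural-like block, and Notch2 and Hes1 are spread over many blocks.

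Among the receptors, Notch3 was the one led by mural-like cells. NOTCH3 is the receptor of vascular smooth muscle and pericytes, and the gene lies at chr17:32120820-32166852 on the minus strand in GENCODE M21 (GRCm38). Mural-like cells held it at 460 CPM (95% interval 372 to 563) at 1 month, 511 (445 to 584) at 1.5 months, 705 (558 to 879) at 3 months and 801 (688 to 927) at 16 months. AD-like cells came next in every library, at 70.6 CPM (58.4 to 84.7), 71.0 (64.9 to 77.6), 106 (91.6 to 121) and 199 (194 to 203). The order of these classes did not change with age, and mural-like cells stood 4.03-fold to 7.19-fold above AD-like cells. After every cell was thinned to 3000 UMIs, a Notch3 UMI was found in 87.0% (95% Clopper-Pearson interval 66.4 to 97.2), 76.9% (64.8 to 86.5), 71.4% (47.8 to 88.7) and 90.9% (70.8 to 98.9) of mural-like cells, which overlap, and in 17.8% to 42.9% of AD-like cells. Without thinning a Notch3 UMI was found in at least 83.3% of mural-like cells of each library and in 33.0% to 77.8% of AD-like cells. Neutrophil-like cells, a type that should lack the gene, had it in 0.540%, 0 of 35 (which allows a share of up to 8.57%), 0.469% and 5.65% of cells. Their level was highest at 16 months, at 31.1 CPM against 0 to 1.42 CPM in the younger libraries. At 1.5 months these 35 cells also held CH markers, summed to 31113 CPM against 67579 CPM in CH-like cells. Median depth before thinning was 5882.5 to 11673 UMIs in neutrophil-like, 3647 to 7757 in mural-like and 3979 to 9751.5 in AD-like cells. OB-like cells stayed between 1.95 and 3.56 CPM at all ages, and CH-like cells between 2.01 and 5.61 CPM.

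**Figure D2:**
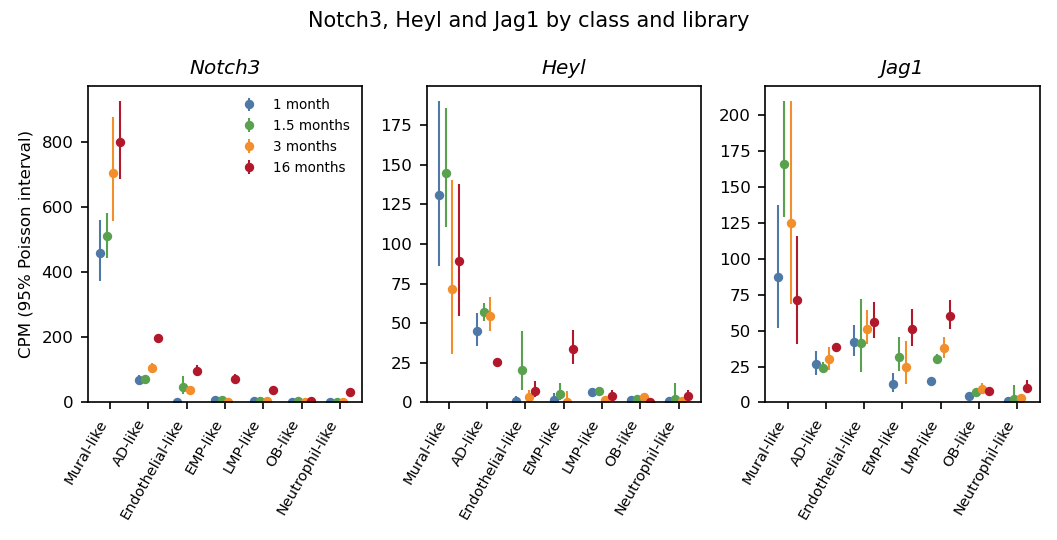
CPM of Notch3, Heyl and Jag1 by class (x axis) and library (colour), with points for the class value and bars for the 95% Poisson interval. Notch3 in mural-like cells lies above all other classes plotted in all 4 libraries, while the Jag1 intervals of mural-like, LMP-like and endothelial-like cells overlap at 16 months.

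Notch1, the receptor with the broadest known roles in endothelium and blood, was highest in endothelial-like cells of each library (chr2:26457903-26516663, minus strand). Its level there was 76.3 CPM (62.8 to 91.8) at 1 month, 110 (75.3 to 155) at 1.5 months, 194 (172 to 218) at 3 months and 268 (242 to 296) at 16 months. Each library thus had a higher value than the younger ones, with overlapping intervals only between 1 and 1.5 months. The interval did not separate endothelial-like from mural-like cells at 1 month, where the latter held 6 UMIs. After thinning, 21.4% (15.5 to 28.4), 21.9% (9.28 to 40.0), 40.6% (34.2 to 47.3) and 59.8% (48.7 to 70.1) of endothelial-like cells carried a Notch1 UMI, and without thinning 44.6%, 65.6%, 61.9% and 89.0%. Median depth of these cells was 7408.5, 8931.5, 5668 and 16858 UMIs. In neutrophil-like cells the shares were 4.16%, 0 of 35, 4.93% and 16.5%, so the share in neutrophil-like cells was also highest at 16 months. AD-like cells were the highest mesenchymal class for Notch1 in all libraries, from 19.3 CPM at 1 month to 44.4 CPM at 16 months, and OB-like cells stayed between 3.56 and 4.28 CPM.

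Notch4, a receptor known from endothelium, was restricted further (chr17:34564268-34588503, plus strand). Endothelial-like cells held 44.3 CPM (34.2 to 56.4), 37.8 (18.9 to 67.7), 86.6 (72.3 to 103) and 56.2 (44.7 to 69.8) in order of age, 12.2-fold to 27.9-fold above the next class. The value at 3 months was the highest, and its interval lay above those of the other libraries. No other class with at least 20 cells exceeded 4.55 CPM. In neutrophil-like cells 16 UMIs were counted among 1852 cells at 1 month and 0, 0 and 3 UMIs in the other libraries.

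Notch2 was the receptor with the most even spread over classes, and its interval separated no highest class in any library (chr3:98013527-98150361, plus strand). NOTCH2 is known in bone from osteoclast precursors and osteoblasts. AD-like cells led at 1 month with 59.2 CPM (48.0 to 72.1), ahead of macrophage-like cells at 47.0 (40.8 to 53.8). Macrophage-like cells led in the later libraries, at 111 (64.5 to 177), 93.9 (78.9 to 111) and 97.8 CPM (70.8 to 132). EMP-like, LMP-like and AD-like cells ranged from 39.5 to 109 CPM over all libraries. Endothelial-like cells, which led for Notch1 and Notch4, held 15.0 to 41.3 CPM of Notch2. Neutrophil-like cells held 20.7 to 45.5 CPM, a range that overlaps the endothelial-like values.

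Of the ligands, Dll4 and Dll1 had their highest level in endothelial-like cells of every library. DLL4 marks arterial and tip endothelium, and DLL1 is a further Delta-like ligand of endothelium. Dll4 (chr2:119325784-119335962, plus strand) stood at 66.7 CPM (54.2 to 81.3), 51.6 (28.9 to 85.1), 81.2 (67.3 to 97.1) and 116 (99.0 to 135) in endothelial-like cells of the 4 libraries. The highest value in any other class with at least 20 cells was 2.27 CPM. Mural-like cells held 0 Dll4 UMIs in every library, where the upper 95% Poisson bounds were 8.76 to 32.9 CPM. Dll1 (chr17:15367354-15376872, minus strand) was at 19.7 CPM (13.2 to 28.4), 48.2 (26.3 to 80.8), 76.5 (63.0 to 91.9) and 106 (90.2 to 124) in endothelial-like cells, so that each older library was higher, with overlapping intervals between each library and the next older one. In other classes Dll1 did not exceed 4.99 CPM, reached in CH-like cells at 16 months. Its UMIs were not confined to endothelial-like cells. At 16 months the AD-like subcluster led by Hsph1, Cxcl13 and Rgs16 held 23 Dll1 UMIs in 1050 cells (1.96 CPM). After thinning, 14.3% to 27.6% of endothelial-like cells carried a Dll4 UMI and 8.33% to 26.4% a Dll1 UMI (31.6% to 69.2% and 15.5% to 59.3% without thinning), against 0 to 0.108% of neutrophil-like cells for Dll4 and none for Dll1.

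**Figure D3:**
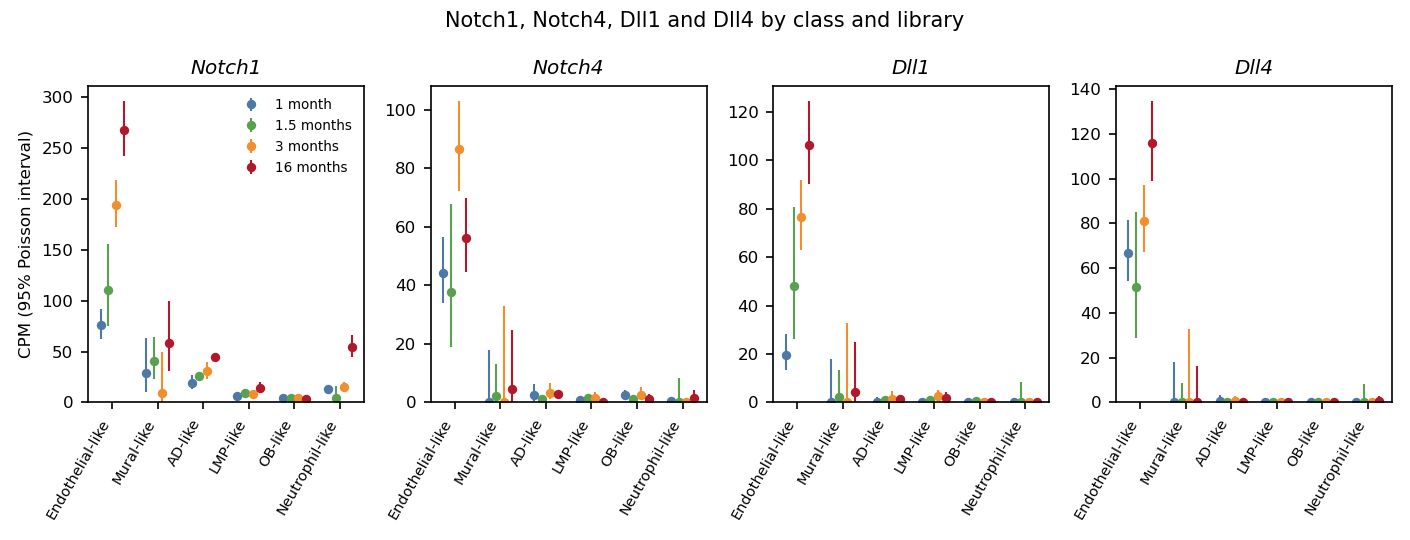
CPM of Notch1, Notch4, Dll1 and Dll4 by class (x axis) and library (colour), with points for the class value and bars for the 95% Poisson interval. All 4 genes are highest in endothelial-like cells, where Notch1 and Dll1 are higher in each older library and Notch4 is highest at 3 months; each panel has its own scale.

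Notch1 and Dll4 UMIs met in the same endothelial-like cell in 8 of 168 cells at 1 month, 2 of 32 at 1.5 months, 16 of 229 at 3 months and 13 of 87 at 16 months, among thinned cells. These cells are part of 36, 7, 93 and 52 Notch1-bearing and 24, 6, 40 and 24 Dll4-bearing cells. A transcript present in a cell can be missed at 3000 UMIs, so a cell without a UMI is not shown to lack the gene.

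Jag1 had a different distribution from the Delta-like ligands (chr2:137081456-137116644, minus strand). JAG1 presents the signal from endothelium to mural cells and also from stroma to hematopoietic cells. Mural-like cells led at 87.2 CPM (51.7 to 138), 166 (130 to 210), 125 (68.3 to 210) and 71.6 (40.9 to 116). The interval separated mural-like cells from the next class at 1.5 and 3 months and did not at 1 and 16 months. Endothelial-like cells held 41.3 to 56.2 CPM, and the mesenchymal progenitors were lower at 1 month and reached a similar level at 16 months. LMP-like cells held 14.8 CPM (12.0 to 18.0), 30.1 (26.5 to 34.0), 37.8 (30.9 to 45.9) and 60.4 (51.0 to 71.1) from 1 to 16 months. LMP-like cells thus had a higher value in each older library. OB-like cells stayed lower, at 4.67 to 9.60 CPM, and Ocy-like cells between 0 and 10.7 CPM. Neutrophil-like cells were at 1.07 to 2.84 CPM in the younger libraries and 10.4 CPM at 16 months. Jag1 and Notch3 UMIs were found together in 3 of 23, 10 of 65, 4 of 21 and 6 of 22 thinned mural-like cells.

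Among the targets, Heyl was led by mural-like cells, as Notch3 was. AD-like cells were its highest named mesenchymal class in the younger libraries. HEYL is a repressor of the Hey family that is known from vascular smooth muscle (chr4:123233556-123249875, plus strand). Mural-like cells held 131 CPM (86.2 to 190), 145 (111 to 186), 71.4 (30.8 to 141) and 89.4 (54.6 to 138), and AD-like cells 45.3 CPM (35.6 to 56.8), 57.1 (51.7 to 63.1), 54.8 (44.9 to 66.3) and 25.3 (23.7 to 26.9). At 3 months, with 8 Heyl UMIs in 30 mural-like cells, the intervals of the classes overlapped. At 16 months EMP-like cells held 33.9 CPM (24.6 to 45.7) of Heyl, above the AD-like value with an overlapping interval. All 9 thinned mural-like cells with a Heyl UMI at 1 month also carried Notch3, as did 18 of 27, 5 of 6 and 6 of 7 in the later libraries. Notch3 was detected in 71.4% to 90.9% of those cells in any case. Across the 54 class and library values with at least 20 cells, Notch3 was the gene most like Heyl (Pearson r of log2(CPM + 1) 0.894), followed by Myl9 at 0.890 and Ednra at 0.890. The points share libraries, depth and classes, so the correlation is a description.

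Hes1, the classical Hes target, was found in most classes outside the blood (chr16:30064384-30067796, plus strand). AD-like cells led at 1, 1.5 and 16 months, at 396 CPM (366 to 428), 646 (627 to 665) and 842 (833 to 852), and endothelial-like cells at 3 months, at 825 (779 to 873) against 636 (601 to 672) in AD-like cells. At 1.5 months the intervals of these classes overlapped. Mural-like cells ranged from 174 to 760 CPM, Ocy-like cells from 202 to 345 CPM and OB-like cells from 75.7 to 203 CPM. Granulocyte progenitor-like cells lay at 8.04 CPM at 3 months, but at 81.0 CPM at 16 months, and neutrophil-like cells at 125 CPM at 16 months against 8.05 to 76.1 CPM before. B-like cells, present in sufficient number only at 1 month, held 111 CPM. After thinning, 52.5% to 73.3% of AD-like cells carried a Hes1 UMI, and 70.9% to 90.7% without thinning. HES1 is also induced by other signals, and no part of its level can be assigned to Notch here.

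In the 3 younger libraries the highest level of Hey1 lay outside the named classes, at 3 months without separation by the intervals (chr3:8663359-8667256, minus strand). HEY1 is a repressor known from arterial endothelium. Among the named classes, AD-like cells led at 1 month with 46.5 CPM (36.7 to 58.1) and mural-like cells later, at 42.7 (25.3 to 67.5), 26.8 (5.52 to 78.3) and 49.2 (24.6 to 88.0), and the leading class was separated only at 16 months. That separation rests on 22 mural-like cells: with at most 10% mitochondrial UMIs, which gave 170 such cells, the 16 month value was 23.5 CPM. When mesenchymal cells were clustered alone, an unnamed subcluster of the 1 and 1.5 month libraries led by Kcnk2, Slc20a2 and Npy held 127 CPM (112 to 143) in 213 cells at 1 month and 169 CPM (154 to 185) in 324 cells at 1.5 months. That is 2.73-fold and 4.23-fold the AD-like value of the same library. The subcluster of 3 month cells with the most Hey1, led by Mmp9, Limch1 and Spp1, had 38.3 CPM (29.3 to 49.1) in 228 cells, 1.90-fold the AD-like value. The interval of mural-like cells, the leading named class at 3 months, was 5.52 to 78.3 CPM and covers that of the subcluster. A further unnamed subcluster, led by Spp1, Mmp9 and Mmp13, held 42.3 CPM at 1 month and 63.3 CPM (50.9 to 77.9) at 1.5 months. OB-like cells held 2.67 to 10.9 CPM and EMP-like cells of the younger libraries 4.09 to 6.38 CPM. Clustering did not use the members or the pathway genes, but clusters are made from the same cells, so these values are a description.

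In the subcluster led by Kcnk2, Slc20a2 and Npy, other members were present as well. Notch3 was at 51.5 CPM at 1 month and 72.0 CPM at 1.5 months, Heyl at 54.9 and 49.3 CPM, Jag1 at 31.0 and 50.7 CPM, and Hes1 at 195 and 395 CPM. Notch3 and Heyl were thus within 1.5-fold of the AD-like values given above, while Hes1 was lower than in AD-like cells. After thinning, 32.4% (26.2 to 39.1) and 34.4% (29.2 to 39.8) of its cells carried a Hey1 UMI, against 9.87% (6.29 to 14.6) and 10.0% (8.33 to 11.9) of AD-like cells. In neutrophil-like cells the shares were 0.270% and 5.71%, the latter of only 35 cells. Without thinning these shares were 65.7% and 61.4% in the subcluster and 22.0% and 16.7% in AD-like cells. The names and borders of these subclusters depend on the clustering. At resolution 0.5 the highest 1 month subcluster was AD-like, led by Esm1, Cxcl12 and Adipoq, with 105 CPM in 72 cells, and the highest at 1.5 months was unnamed with 136 CPM in 376 cells. At resolution 1.2 an AD-like subcluster led by Kcnk2, Limch1 and Angpt4 held 120 CPM at 1 month and 148 CPM at 1.5 months, next to an unnamed one with 134 and 187 CPM. The AD-like value of the 1 month library, 46.5 CPM, was 68.1 CPM at resolution 0.5, 79.8 CPM at resolution 1.2 and 69.6 CPM with that library clustered alone, so the folds over AD-like cells depend on where this class ends. With the 1.5 month library clustered alone these cells did not separate, and its highest subcluster was AD-like, led by Ccl2, Tnfsf11 and Trf, with 54.1 CPM in 935 cells. At 16 months no unnamed subcluster led, and the highest value was 26.3 CPM in the AD-like subcluster led by Hsph1, Cxcl13 and Rgs16.

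**Figure D4:**
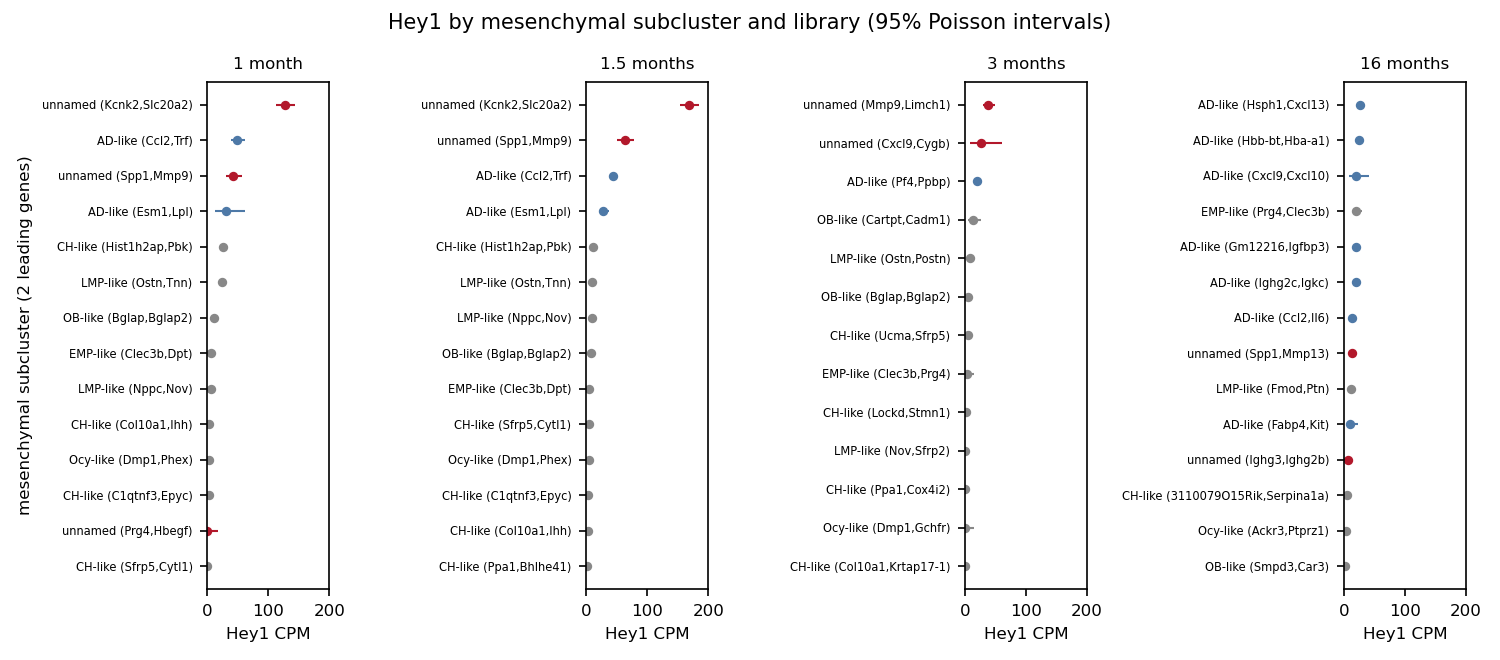
Hey1 CPM (x axis) in each mesenchymal subcluster of at least 20 cells, 1 panel per library, ordered by value and labelled with 2 leading genes; bars are 95% Poisson intervals, red marks unnamed, blue AD-like and grey other named subclusters. An unnamed subcluster leads at 1, 1.5 and 3 months, with 169 CPM at 1.5 months, and AD-like subclusters lead at 16 months.

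Within the AD-like cells of 16 months, 7 subclusters allowed a closer look. Notch3 ran from 151 to 270 CPM among them and Jag1 from 25.8 to 42.7 CPM, so each lay within 2-fold. Hes1 was lowest, at 422 CPM, in the subcluster led by Ccl2, Il6 and Ccl7, against 677 to 1062 CPM in the other subclusters, and the same subcluster had a Notch1 level of 64.1 CPM against 27.4 to 64.6 CPM in the others. Heyl was highest, at 62.6 CPM, in the small subcluster led by Fabp4, Kit and Mrap (58 cells), where Notch3 was lowest at 151 CPM. The subcluster led by hemoglobin genes held the most Notch3 at 270 CPM.

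The same members were then compared between 16 months and the mean of the younger libraries within 5 classes. A member is called higher or lower when the log2 ratio of (CPM + 1) was at least 1 or at most -1, the 16 month value lay outside the range of the younger libraries, and at least 10 CPM were reached. In AD-like cells 2 of 7 members that reached 10 CPM were called, beside 16.4% of 8758 genes, 10.6% higher and 5.85% lower. Notch3 was higher, at 199 CPM against a younger mean of 82.4 CPM (log2 ratio 1.26), and Heyl was lower, at 25.3 against 52.4 CPM (log2 ratio -1.02). Notch3 and Heyl, both led by mural-like cells, thus moved in opposite directions with age in AD-like cells. The Heyl value was close to the limit of the rule, at -0.96 without the 1.5 month library, -0.99 without the 3 month library and -0.88 with TMM factors, none of which is called. Hey1 (log2 ratio -0.72) had a 3 month value, 20.2 CPM, just under that of 16 months, and Notch1 (0.80), Hes1 (0.59) and Jag1 (0.50) stayed within the limit of 2-fold. The median log2 ratio was 0.50 over the 7 members and 0.05 over all genes.

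In EMP-like cells 6 of 7 members were called, all higher, beside 32.7% of 9404 genes, 23.3% higher and 9.42% lower. Notch3 was at 72.6 CPM (58.5 to 89.0) at 16 months and at 6.38, 6.18 and 0 CPM before (log2 ratio 3.83), and Heyl at 33.9 CPM (24.6 to 45.7) against 1.59, 5.15 and 0 CPM (3.43). Hes1 stood at 782 CPM (734 to 832) against 149 to 166 CPM (2.31), Hey1 at 19.7 against 4.09 to 6.38 CPM (1.74), Notch1 at 17.4 against 4.09 to 6.38 CPM (1.56) and Jag1 at 51.3 against 12.8 to 31.9 CPM (1.12). Jag1 was no longer called without the 1 month library (0.84) or with TMM factors (0.76). Notch1, Notch3, Jag1 and Hes1 were also highest at 16 months in neutrophil-like cells, by the levels or shares given above. With at most 3% mitochondrial UMIs, which left 22 EMP-like cells at 16 months, the ratio of Heyl turned to -1.44. Markers of AD moved with these members: all 8 were higher in EMP-like cells at 16 months than in every younger library, none was at 0, and their summed level was 14086 CPM against 343 to 1238 CPM. Each EMP marker was lower in EMP-like cells at 16 months than in every younger library. Clec3b stood at 347 against 1385 to 3430 CPM and Ly6a at 407 against 1118 to 2972 CPM. EMP-like cells held the highest level of 5, 7, 5 and 5 of 7 EMP markers in order of age. Notch2, the member not called, was at 65.5 CPM against 39.9 to 75.2 CPM. The part of AD-like RNA and of the lower EMP markers in these values was not tested.

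In LMP-like cells Notch3 and Jag1 were called higher, 2 of 6 members that reached 10 CPM, beside 27.5% of 8702 genes, 18.1% higher and 9.42% lower. Notch3 was at 38.7 CPM (31.3 to 47.5) at 16 months against 4.37 to 5.86 CPM in the younger libraries (log2 ratio 2.66). Its level in neutrophil-like cells of the same library was 31.1 CPM (23.9 to 39.8), an overlapping interval. Jag1, at 60.4 CPM against a younger mean of 27.6 CPM (log2 ratio 1.10), lay above its neutrophil-like level of 10.4 CPM (6.43 to 15.9), and was not called without the 1 month library (0.81) or with TMM factors (0.85). All 8 AD markers were higher at 16 months here as well, summed to 3264 CPM against 355 to 978 CPM, and their part was not tested.

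In OB-like cells 3 members reached 10 CPM and Hey1 was called lower, beside 13.9% of 6910 genes, 7.71% higher and 6.16% lower. It stood at 10.9 CPM (8.23 to 14.2), 7.32 (5.34 to 9.80) and 6.90 (4.37 to 10.4) in the younger libraries and at 2.67 CPM (1.38 to 4.66) at 16 months, from 12 UMIs (log2 ratio -1.35). Notch2 and Hes1 were not called, with log2 ratios of -0.67 and 0.09. Median depth moved with age, at 26553.5 UMIs per OB-like cell at 16 months against 10829 to 17085 before, and after thinning the log2 ratio of Hey1 was -0.18, which is not called.

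In endothelial-like cells all 10 members reached 10 CPM and 4 were called, beside 26.0% of 9829 genes, 13.6% higher and 12.4% lower. Notch1 (log2 ratio 1.07), Dll1 (1.13) and Notch3 (1.71) were higher and Hey1 (-1.41) lower. Hey1 stood at 44.9 CPM (34.8 to 57.2), 31.0 (14.2 to 58.8), 21.7 (14.8 to 30.6) and 11.6 (6.79 to 18.7), lower in each older library, whereas the receptor Notch1 and the ligand Dll1 were higher in each. Dll4 (0.79), Jag1 (0.32), Notch2 (0.29), Heyl (-0.11) and Hes1 (0.01) were not called, nor was Notch4, whose value of 56.2 CPM equalled the younger mean of 56.2 CPM. Without the 1 month library Notch1 (0.81) and Dll1 (0.76) were no longer called while Notch3 and Hey1 remained, and without the 1.5 month library or with TMM factors Notch1 (0.98 and 0.96) was not called. Stab2, a marker of sinusoidal endothelium, was at 52.4, 189, 460 and 395 CPM in these cells, and its part in these values was not tested. Mural markers summed to 150, 905, 1071 and 1160 CPM in order of age in endothelial-like cells. They include Kcnj8 and Abcc9, which were higher in endothelial-like than in mural-like cells at 3 and 16 months. Abcc9 stood at 489 against 210 CPM at 16 months. Rgs5 was at 499, 443 and 394 CPM in endothelial-like cells at 1.5, 3 and 16 months. AD markers summed to 780, 10530, 2691 and 10342 CPM, beside Notch3 values of 1.36, 48.2, 37.2 and 96.6 CPM in the same cells. Removal of the highest doublet scores left 13 of 32 endothelial-like cells at 1.5 months. Neutrophil markers summed to 43077 CPM at 1 month and to 268 to 3467 CPM later. The part of these cells in the values was not tested.

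**Figure D5:**
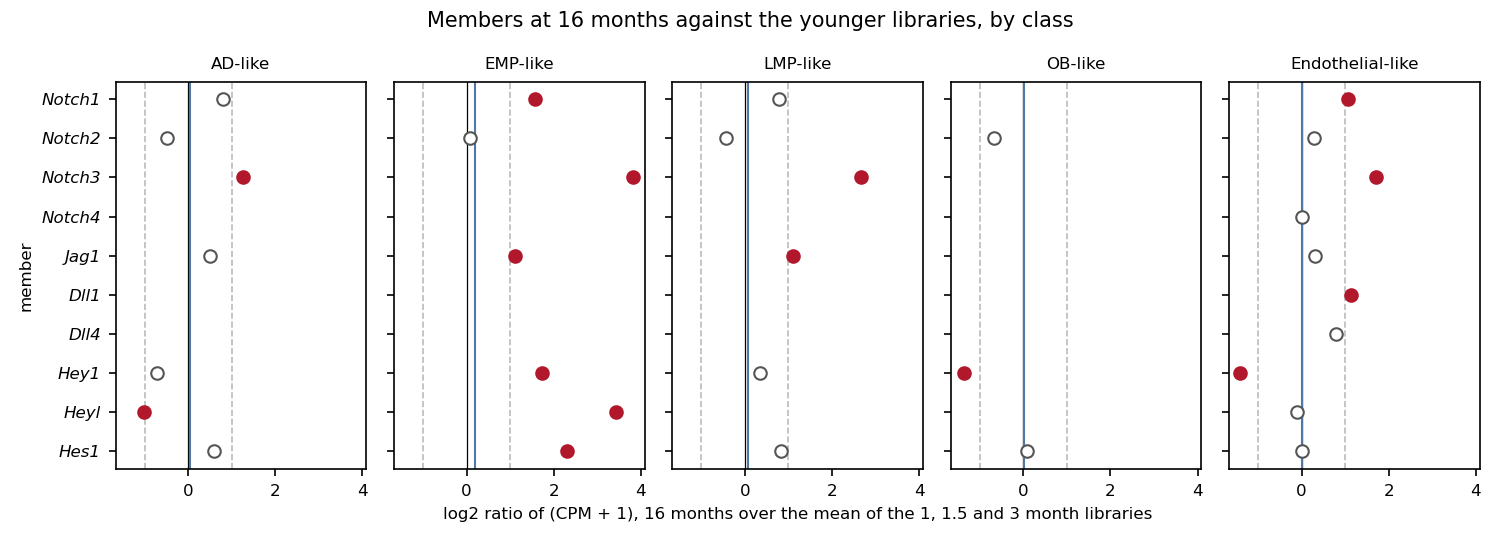
Log2 ratio of (CPM + 1) at 16 months over the mean of the younger libraries (x axis) for each member that reached 10 CPM, in 5 classes; red points are past 2-fold and outside the younger range, open points are not, dashed lines mark 2-fold and the blue line the median of all genes. Notch3 is past 2-fold upward in 4 of the 5 classes, Hey1 is higher in EMP-like and lower in OB-like and endothelial-like cells.

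A list of 43 other genes of the pathway was set beside the members. At least 10 CPM in a class of every library were reached by 30, of which 8 had 1 highest class throughout, near the 22.7% of all genes. Mural-like cells led for Nrarp, a feedback inhibitor and Notch target, at 257, 199, 286 and 179 CPM, and for Dtx3, a Deltex family ubiquitin ligase, at 130 to 205 CPM. Endothelial-like cells led for Mfng, a fringe glycosyltransferase that modifies the receptors, at 101, 65.4, 98.1 and 50.7 CPM, and for the coactivator Maml3 and the inhibitor Numb. AD-like cells led for Ncstn, a subunit of γ-secretase, at 37.4 to 71.1 CPM, and for Dtx4, and macrophage-like cells for Adam17, a receptor-cleaving protease, at 51.0 to 141 CPM.

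Between ages, 5 of 29 measured pathway genes were called higher and 0 lower in AD-like cells, 7 and 0 of 29 in EMP-like, 8 and 1 of 30 in LMP-like, 5 and 1 of 23 in OB-like and 9 and 1 of 31 in endothelial-like cells. Over all genes the shares called higher were 10.6%, 23.3%, 18.1%, 7.71% and 13.6% in this order, so that the EMP-like count was near its background. Rbpj, the DNA-binding partner of the cleaved receptor, was higher in AD-like (161 against a younger mean of 66.2 CPM), LMP-like (129 against 40.7), OB-like (log2 ratio 1.13) and endothelial-like cells (86.3 against 38.0). Maml3 and the corepressor Spen were higher in all 5 classes, with Spen at 37.1 to 65.1 CPM at 16 months against younger means of 9.34 to 17.5 CPM. Numb was called higher in all but OB-like cells. There it did not reach 10 CPM, at 7.56 against a younger mean of 2.53 CPM (log2 ratio 1.28). Among the others called higher were Jag2 in endothelial-like cells (41.1 against 10.2 CPM), Lfng and Fbxw7 in EMP-like cells, Dtx4 in EMP-like and endothelial-like cells, Mib1 in EMP-like, LMP-like and endothelial-like cells, Maml1 in AD-like and OB-like cells, Psen2 in endothelial-like cells, Itch in OB-like cells, and Dner and Maml2 in LMP-like cells. Called lower were Hes6 in LMP-like (10.0 against 26.2 CPM), Rfng in OB-like (9.33 against 20.2 CPM) and Psenen in endothelial-like cells (89.8 against 204 CPM). Over the whole table more genes were called higher than lower in all 5 classes, with 71.2% of the called genes higher in EMP-like, 65.8% in LMP-like, 55.6% in OB-like and 52.3% in endothelial-like cells, but with TMM factors these shares were 44.4%, 43.5%, 44.0% and 42.8%, and only AD-like cells kept the direction (64.4% and 79.3%).

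For the remaining members the genes with the most similar levels over the 54 class and library values were as follows. Notch3 was most like Susd2 (r = 0.943), Ednra (0.934) and Tusc5 (0.927). For Dll4 these were Ces2e (0.973), Sele (0.965) and Hoxb8 (0.964), for Dll1 Rbfox3 (0.933), Sox7 (0.922) and Sox18 (0.922), and for Notch4 Sema3g (0.871), Gpr182 (0.870) and the member Dll1 (0.864). Notch1 was less close to any gene, with Snrk (0.833), Adora2a (0.823) and Myh9 (0.819). Jag1 was most like Phldb2 (0.925), Adgra2 (0.917) and Cald1 (0.908), Hes1 like Dlc1 (0.949), Yap1 (0.927) and Tnks1bp1 (0.927), Hey1 like Tmem47 (0.853), Sept10 (0.844) and Gdf11 (0.835), and Notch2 like Blcap (0.749), Fuca1 (0.731) and Stard3nl (0.708). Notch2 had the lowest of these values and its correlation with the other members ran from -0.04 to 0.32.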

How the data were processed

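The deposited values are UMI counts per gene and cell barcode, made by the authors with Cell Ranger 3.0.2 (mm10 with the reporter added, per the labels), not normalized. The labels also name Seurat 2. Barcodes were kept between 200 and 6000 genes and up to 5% mitochondrial UMIs. The 1 and 1.5 month libraries were clustered together and the others singly with Seurat 5.3.0 in R 4.3.3 (2000 variable genes without the members, pathway genes and markers, 30 dimensions, resolution 0.8), and mesenchymal cells were clustered again. Clusters took a name only from at least 3 markers raised 2-fold, and some with 3 or more passing markers stayed unnamed. UMIs of the 26600 common genes were summed per class and library and given as CPM with 95% Poisson intervals. Classes of at least 20 cells entered orders. Shares were computed after thinning cells to 3000 UMIs (SciPy 1.17.1). Clusters that mixed lineages were set aside, and doublets were removed only in an alternative (Scrublet in scanpy 1.11.5). TMM factors came from edgeR 4.0.16, with no edgeR test. The age rule was tested on simulated data. Named are the 10 members, the pathway genes that were called or kept 1 highest class, and the 3 genes most alike to each member. A called pathway gene is counted but not reported here by name. Members and lists were chosen with earlier results of these data known. The tables hold 1 library per age, so no p-value is given.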

Additional observations from a re-analysis of the deposited data

Results flagged for a closer look

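Hey1 and Heyl were called in opposite directions with age in different classes, and the difference between classes was not tested. The log2 ratio of 16 months over the younger libraries was 1.74 for Hey1 in EMP-like cells, against -1.35 in OB-like and -1.41 in endothelial-like cells. For Heyl it was 3.43 in EMP-like and -1.02 in AD-like cells. In EMP-like cells AD markers summed to 14086 CPM at 16 months and to 343 to 1238 CPM in the younger libraries, and their part in both EMP-like values was not tested.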

How the results depend on the processing

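The number of members with 1 highest class in all libraries (7) was 0 where a class is lost by construction: with classes of at least 50 cells, after the highest 8% of doublet scores were removed, which left 13 endothelial-like cells at 1.5 months and 19 mural-like cells at 3 months, and with at most 3% mitochondrial UMIs, which left 5 endothelial-like and 0 mural-like cells at 16 months. It ranged from 7 to 9 without 1 library. The called members per class changed as follows. In AD-like cells (2) they were 1 with TMM factors, 4 at 1.5-fold, 1 with 5 CPM added, 1 to 2 without 1 library and 3 at resolution 0.5 and 1.2, where Hey1 was added. In EMP-like cells (6) they were 3 with at least 50 CPM and 5 to 6 without 1 library, and Jag1 was not called with TMM factors. In LMP-like cells (2) they were 4 at resolution 0.5, 1 with TMM factors, 1 with at least 50 CPM, 4 at 1.5-fold, 1 to 2 without 1 library and 3 at resolution 1.2, where Hes1 was added. In OB-like cells (1) they were 0 with at most 10% mitochondrial UMIs, when thinned, with at least 50 CPM and with 5 CPM added, and 2 with no minimum. In endothelial-like cells (4) they were 2 to 4 without 1 library, and Notch1 was not called with TMM factors. With at most 3% mitochondrial UMIs, which left 22 EMP-like cells at 16 months, the log2 ratio of Heyl there reversed to -1.44. For this last value and the other changes the cause was not tested.

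TMM factors moved the median log2 age ratio of all genes by 0.16 in AD-like, -0.40 in EMP-like, -0.27 in LMP-like and -0.11 in endothelial-like cells, and the share of called genes that were higher from 64.4% to 79.3%, 71.2% to 44.4%, 65.8% to 43.5% and, in OB-like cells, 55.6% to 44.0%. Of the CPM values recomputed under the alternatives, 340 moved by less than their interval and 55 by more, and of the log2 ratios of called members 215 stayed called, 24 did not and 1 reversed. Resolution 0.5 gave no EMP-like class at 16 months, and the endothelial-like value after doublet removal and the endothelial-like and OB-like values under the 3% limit could not be had, since fewer than 20 cells were left. The 10% limit on mitochondrial UMIs and the leaving out of libraries were chosen after seeing the data. No paired analysis was possible because each age has 1 library. Mural-like cells, 22 to 65 per library, limit every value given for them.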
